A study of Mus musculus with 8 samples.

Results

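The genes described here encode the 4 early B cell factors (Ebf1, Ebf2, Ebf3 and Ebf4) and the zinc finger proteins Zfp423 and Zfp516, and what is described is the ATAC-seq summits called at them in brown adipose tissue (BAT). Summits were taken from the authors' deposited list of ATAC-seq peak summits on mm10, in which each peak has 1 position, its highest point, and 1 score, the −log10 q-value from MACS2. A summit was assigned to a gene when it fell inside the gene or no more than 50 kb from a transcription start site (TSS) of a curated RefSeq mRNA of that gene. This rule took 42 of the 32173 summits, at 6 of the 21000 genes with such an mRNA.

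The list was made from 4 ATAC-seq libraries of BAT nuclei, 2 from WT mice and 2 from Dot1L-BKO mice, each from a separate animal. WT mice were littermates that carried Dot1l f/f without Cre, and Dot1L-BKO mice carried Dot1l f/f with Ucp1-Cre, which removes the histone methyltransferase Dot1l from Ucp1+ cells and leaves it in the other cells of the tissue. All animals were fed chow to 12 weeks of age and spent 4 hr at 4°C before the tissue was taken, so that no warm group was available for comparison. The peak names set the WT libraries against the Dot1L-BKO libraries, and whether MACS2 used any of them as control is not given in the sources used here. The paper's methods name no control and state that MACS2 peaks were quantified by sample to give a union set. If the Dot1L-BKO libraries were the control, each summit and score would stand for signal in WT over Dot1L-BKO rather than for open chromatin as such, and a stretch without a summit could still be open in both. The list holds no value per library, so that here depth is unknown, no replicate error can be given, the genotypes were not compared, and the values below describe a single list. Since whole tissue was used, a summit cannot be given to a cell type, and few cells with much signal at a site cannot be told apart from many cells with little.

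EBF proteins are transcription factors that bind DNA as dimers at a short palindrome. In brown adipocytes EBF2 opens chromatin at brown fat genes and brings in the adipogenic receptor PPARγ. ZFP423 binds EBF2 and holds the brown program back. ZFP516 is a cold-induced activator that binds the Ucp1 promoter together with PRDM16, and EBF1 is best known for its role in B cells but is also adipogenic, while EBF3 is best known from neurons.

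Summits are numbered along the chromosome within each gene, and the sequence around those that carry the main observations is given first. These are the highest-scoring summits of Ebf2, Ebf1, Ebf3 and Zfp423, a promoter summit of Ebf3, the intron 15 summit of Ebf2, and 1 intronic summit of Ebf1. Each holds the summit base and 100 bases on each side in GRCm38 (mm10), plus strand, 5′ to 3′, except for the window of Ebf3 summit 8, which was kept to the 77 bases that lie in no exon of a curated or model mRNA of the gene. Capitals mark matches to the 8 short patterns that were searched on both strands. They are EBF (CCCNNGGGA), a looser EBF pattern (CCCNNGGG, which every EBF match also holds), a PPAR/RXR direct repeat (GGTCANAGG), C/EBP (TTGCNNAA), the NFI pattern (TTGGCA), AP-1 (TGANTCA), CRE (TGACGTCA) and the GC box (GGGCGG). Ebf2 summit 1 lay at chr14:67188757-67188957 and Ebf2 summit 5 at chr14:67415423-67415623. Ebf1 summit 3 lay at chr11:44617122-44617322 and Ebf1 summit 6 at chr11:44665812-44666012. Ebf3 summit 6 lay at chr7:137278134-137278334, the upstream piece at Ebf3 summit 8 at chr7:137314454-137314530, and Zfp423 summit 4 at chr8:87967413-87967613.
Ebf2 summit 1: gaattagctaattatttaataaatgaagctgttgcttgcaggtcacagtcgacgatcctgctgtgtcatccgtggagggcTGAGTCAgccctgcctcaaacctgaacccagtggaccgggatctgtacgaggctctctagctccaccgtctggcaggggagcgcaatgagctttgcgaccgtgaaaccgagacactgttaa
Ebf2 summit 5: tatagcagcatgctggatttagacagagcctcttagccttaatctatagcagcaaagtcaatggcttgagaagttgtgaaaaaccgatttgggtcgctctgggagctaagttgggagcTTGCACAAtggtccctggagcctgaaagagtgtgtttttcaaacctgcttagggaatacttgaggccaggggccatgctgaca
Ebf1 summit 3: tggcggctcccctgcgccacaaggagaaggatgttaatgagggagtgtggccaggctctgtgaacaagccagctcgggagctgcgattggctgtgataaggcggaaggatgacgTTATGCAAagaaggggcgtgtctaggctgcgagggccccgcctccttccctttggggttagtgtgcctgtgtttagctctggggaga
Ebf1 summit 6: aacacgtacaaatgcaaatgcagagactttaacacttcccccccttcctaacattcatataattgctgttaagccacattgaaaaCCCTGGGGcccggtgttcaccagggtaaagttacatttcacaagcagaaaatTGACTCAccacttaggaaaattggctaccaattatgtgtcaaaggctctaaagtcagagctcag
Ebf3 summit 6: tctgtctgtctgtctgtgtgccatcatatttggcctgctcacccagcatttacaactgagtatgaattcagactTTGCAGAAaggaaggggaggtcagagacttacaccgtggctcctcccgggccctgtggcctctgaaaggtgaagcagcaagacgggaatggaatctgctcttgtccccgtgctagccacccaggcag
Ebf3 summit 8: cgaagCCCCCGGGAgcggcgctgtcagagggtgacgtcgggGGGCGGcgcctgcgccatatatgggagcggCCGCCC
Zfp423 summit 4: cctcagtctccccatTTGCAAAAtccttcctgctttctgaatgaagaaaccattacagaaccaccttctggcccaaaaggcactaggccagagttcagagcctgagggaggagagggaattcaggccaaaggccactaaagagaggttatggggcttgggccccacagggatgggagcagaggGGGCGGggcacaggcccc

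Among these windows, the Ebf2 summit with the highest score held an AP-1 match and its farthest intronic summit a C/EBP match. The highest-scoring Ebf1, Ebf3 and Zfp423 summits each held a C/EBP match, and the Ebf3 window just upstream of the first exon held the EBF pattern itself. The highest-scoring summits of Ebf2, Ebf4 and Zfp516 held no C/EBP match, and 10.9% of all summits in the list hold one. The windows shown all have a match, as do 22 of the 42 summits and 51.5% of all summits, so that they do not stand for the rest. A match describes the letters and does not show that a factor is bound.

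Across all 6 genes, summits numbered 12 at Zfp516, 11 at Ebf3, 7 at Ebf1, 5 at Ebf2, 4 at Zfp423 and 3 at Ebf4. All 6 genes had at least 1 summit by the rule, as did 72.5% of all genes. At 5 of the 6 genes at least 1 of these summits was nearer to the gene's own TSS than to that of any other gene, against 54.5% of all genes. The exception was Ebf4, and the 39 summits of the other genes all had their own gene as the nearest. In all, 26 summits lay inside a member gene and 16 outside.

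**Figure D1:**
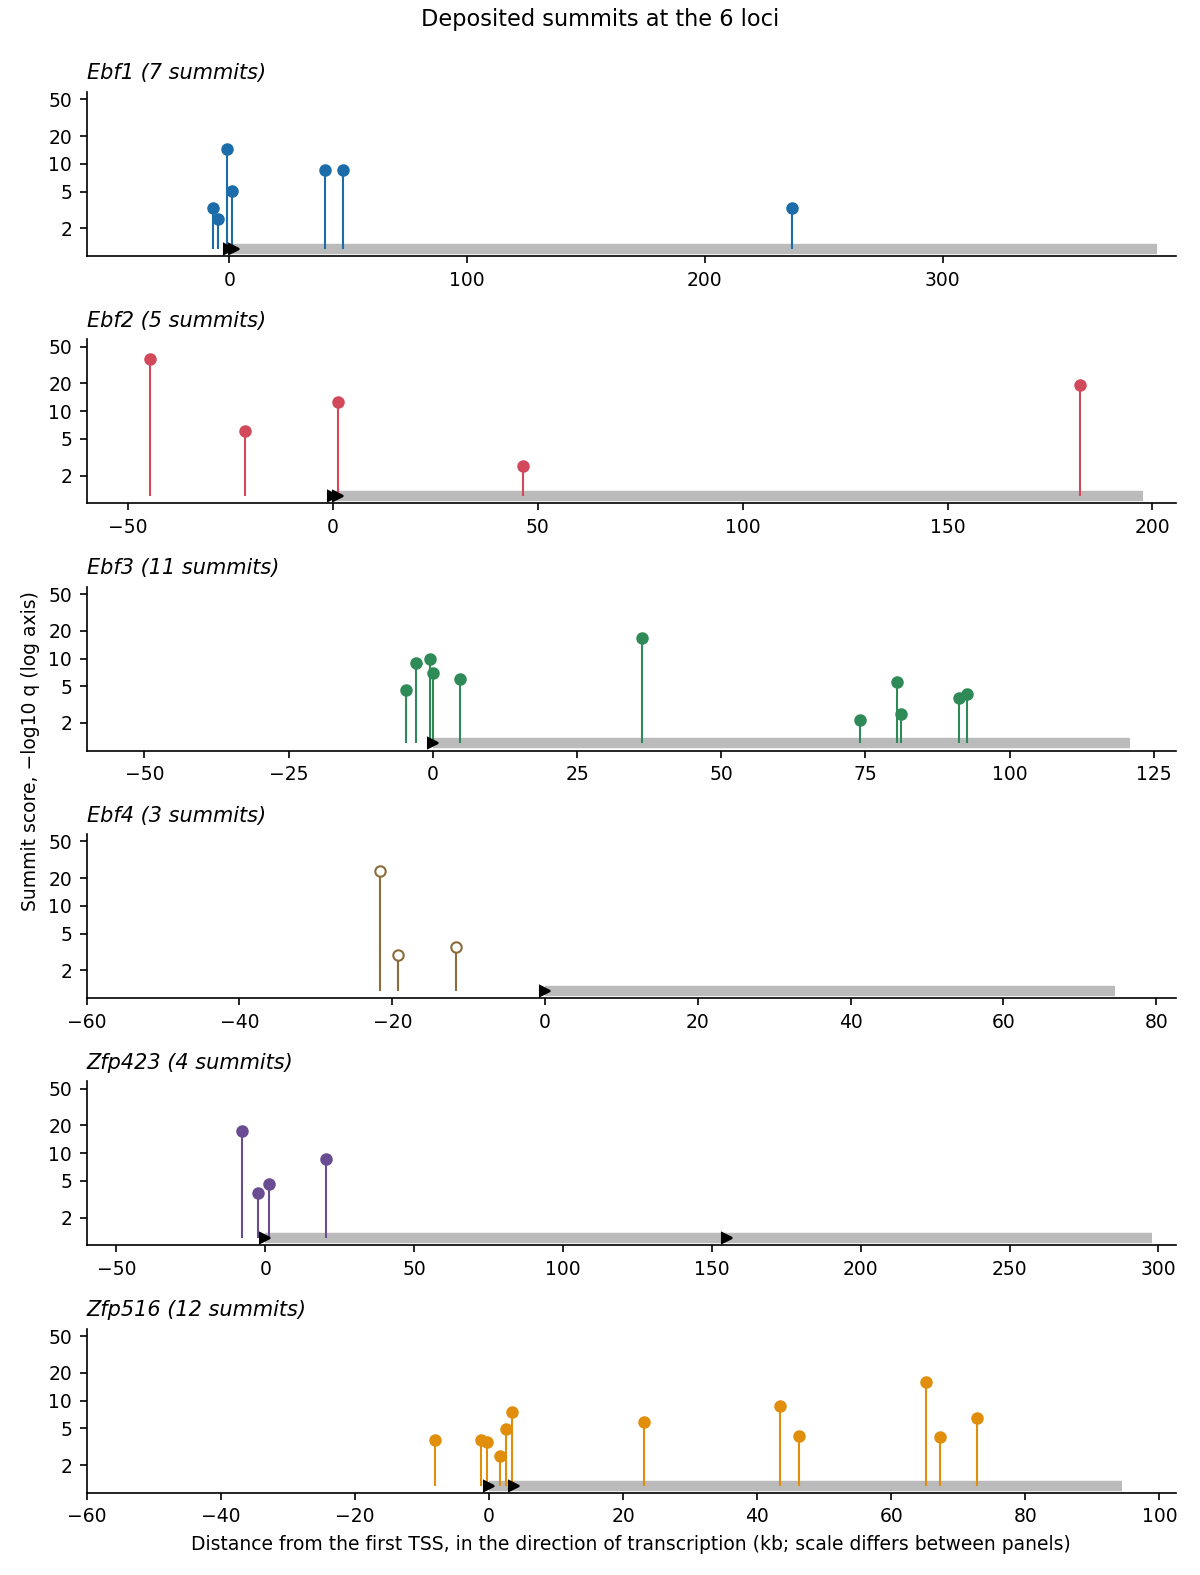
Each panel shows 1 gene with its summits as stems, placed by distance from the first TSS in the direction of transcription (kb, scale differs between panels) and by score (−log10 q, log axis). The grey bar is the gene body, black triangles are TSSs, and open circles are summits nearer to the TSS of another gene: the 3 at Ebf4 are all open, and the 4 at Zfp423 lie in the first 20409 bp of the gene and upstream of it.

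Ebf2, the EBF factor of brown adipocyte identity, had 5 summits, among them the one with the highest score of the 42. Its body lies at chr14:67233292-67430952 on the plus strand, with TSSs at 67233292 and 67234644. From upstream to downstream, the 5 scores were 36.7, 6.02, 12.5, 2.53 and 19.4. The gene thus held 3 of the 8 summits in the 6 loci that scored at least 10, and its median score of 12.5 was the highest of the 6 genes.

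The Ebf2 summit with a score of 36.7 was 44435 bp upstream of the first TSS, and its score ranked 1089 among the 32173 summits. It fell in an exon of the long noncoding RNA gene Gm30438 (chr14:67159163-67189212, plus strand), 355 bp before that gene's end. Its AP-1 match, TGAGTCA, was centred 17 bp from the summit. The promoter summit scored 12.5 and lay 109 bp upstream of the second TSS, in intron 1 of the longer mRNA. No summit lay within 1 kb of the first TSS, from which the nearest was 1243 bp away. The summit with a score of 19.4 was in intron 15, 180879 bp downstream of the second TSS and near the far end of the gene, with its C/EBP match TTGCACAA 22 bp away. Between these, the summit in intron 7 scored 2.53 and the stretch of 136 kb that followed it was free of summits. The Ebf2 summits were also the most scattered, since no 10 kb held more than 1 of them, and the closest pair was 22581 bp apart. The remaining summit, 21338 bp upstream with a score of 6.02, held an NFI match.

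Ebf1, the B cell factor that also acts in adipogenesis, is the longest of the 6 genes (chr11:44618100-45008096, plus strand). Its TSSs lie at 44618100 and 44620228, and its summits gathered around them. The summit 878 bp upstream of the first TSS scored 14.3, with the C/EBP match TTATGCAA 18 bp away. The summit 929 bp upstream of the second TSS, in intron 1, scored 5.07. With those at 4560 and 6947 bp upstream, which scored 2.53 and 3.32, they made 4 summits within 10 kb.

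The other Ebf1 summits were all in the long intron 6. They scored 8.65 at 37961 bp, 8.65 at 45684 bp and 3.32 at 234433 bp downstream of the second TSS. All 3 held an AP-1 match, TGAATCA 6 bp, TGACTCA 40 bp and TGAGTCA 67 bp from the summit, while the 4 around the TSSs held none. Over the whole list AP-1 matches were at 7.68% of summits farther than 1 kb from a TSS and at 3.69% of those nearer, and with so few summits at Ebf1 this is a description only. The middle one also had the looser EBF pattern, 11 bp from the summit. A stretch of 189 kb between the second and the last of these summits held none, and neither did the part of the gene beyond the last.

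Ebf3 had the most summits of the 4 EBF genes, although it is shorter than Ebf1 and Ebf2 (chr7:137193671-137314445, minus strand, TSS at 137314445). Of its 11 summits 5 lay within 10 kb at the TSS. They scored 4.61 at 4579 bp upstream, 9.01 at 2953 bp upstream, 9.78 at 503 bp upstream, 7.05 at 15 bp downstream and 6.02 at 4716 bp downstream. The one 15 bp downstream is in exon 1, in the 5′ untranslated region, and had the EBF match CCCCCGGGA centred 33 bp away together with 2 GC boxes. This is the only EBF match at a promoter summit of the 6 genes.

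The highest Ebf3 score, 16.7, belonged to a summit in intron 6, 36211 bp downstream of the TSS, with the C/EBP match TTGCAGAA 22 bp away. Farther into the gene, 5 lower summits followed between 74080 and 92585 bp from the TSS, with scores of 2.15, 5.53, 2.50, 3.75 and 4.16. The first of these had the only PPAR/RXR match among the 42 summits, GGTCAAAGG, and lay in an exon of the long noncoding RNA gene Gm10578, which runs the other way. The summit that scored 5.53 was 691 bp before the start of Gm10578. The last of them held 2 NFI matches.

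Ebf4 (chr2:130295939-130370481, plus strand) had no summit in its body and none within 1 kb of its TSS. Its 3 summits lay 11719 to 21616 bp upstream and belonged by distance to the neighbouring genes. The summit with a score of 23.8 was 89 bp upstream of the TSS of Nop56, a core protein of small nucleolar ribonucleoprotein particles, and the one with a score of 2.92 was inside Nop56. The summit with a score of 3.58 was in coding exon 2 of Idh3b, a subunit of mitochondrial isocitrate dehydrogenase, 231 bp from its TSS. The last 86.3 kb of the Ebf4 window, from that summit to the end of the gene, held no summit.

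Zfp423, the partner that restrains EBF2, spans chr8:87661810-87959595 on the minus strand, with TSSs at 87959595 and 87804439. Its 4 summits lay close around the first of these. Scores were 17.4 at 7918 bp upstream, 3.75 at 2325 bp upstream, 4.61 at 1351 bp downstream and 8.65 at 20409 bp downstream, the last 2 in intron 1. No summit fell within 1 kb of either TSS, and the second TSS was 134747 bp from the nearest. The remaining 277 kb of the gene held none. The highest of the 4 summits lay on a base that the genome marks as repetitive, 510 bp before the start of the long noncoding RNA gene Gm42032, and held a C/EBP match 81 bp and a GC box 86 bp away.

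Zfp516, the cold-induced activator of Ucp1, had the most summits for its length (chr18:82910879-83005314, plus strand, TSSs at 82910879 and 82914632). Around its TSSs, 5 summits lay within 10 kb, and a further one was 8022 bp upstream with a score of 3.75. In the direction of transcription the 5 scored 3.75, 3.58, 2.53, 4.87 and 7.58. The one that scored 3.58 was 239 bp upstream of the first TSS, and the one that scored 7.58 was 375 bp upstream of the second TSS, in intron 1. Both were therefore promoter summits, with scores below the median of 8.65 for all summits within 1 kb of a TSS.

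The other 6 Zfp516 summits lay in the body. Those in intron 1 scored 5.87 and 8.65, and the one in coding exon 2, on a base marked as repetitive, scored 4.16. In intron 2 the scores were 16.0, 4.04 and 6.53. The first of these, 61513 bp downstream of the second TSS, was the highest of the gene and had the looser EBF pattern 11 bp away. The next, with a score of 4.04, had the EBF pattern 52 bp away.

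As a number per length, Zfp516 and Ebf3 stood highest among the 6 genes. Zfp516 had 8.31 summits per 100 kb of the window searched (95% Poisson interval 4.29 to 14.5) and Ebf3 had 6.44 (3.22 to 11.5). Of all genes, 86.2% had a lower density than Zfp516 and 81.5% a lower one than Ebf3. Ebf4 had 2.41 (0.497 to 7.04), Ebf2 2.02 (0.656 to 4.71), Ebf1 1.59 (0.640 to 3.28) and Zfp423 1.15 (0.313 to 2.94). The summits counted for Ebf4 were all nearer to the TSS of a neighbouring gene. The median over all genes was 1.66, with quartiles of 0 and 4.94, and the median of the 6 genes was 2.21. No neighbours in this order had intervals that were apart. The interval of Zfp516 lay above those of Ebf1 and Zfp423, and that of Ebf3 above that of Zfp423. These intervals cover counting error only and treat summits as independent. The order rested on low scores. With a score of at least 5, Ebf3 had 3.51 per 100 kb and Zfp516 had 3.46, still above the other 4 genes, and with a score of at least 10 Ebf2 was highest with 1.21, above Ebf4 with 0.803, Zfp516 with 0.692 and Ebf3 with 0.586.

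Since windows differ in length, the counts were also set beside genes of similar window length. The windows of Ebf1, Ebf2, Ebf3 and Zfp423 were in the decile with the longest windows, where the median was 1.0 summit with quartiles of 0 and 3.0. All 4 were above that upper quartile. For Ebf4 and Zfp516, in the decile below it, the median was 2.0 with quartiles of 1.0 and 4.0. Ebf4 with 3 summits was within them and Zfp516 with 12 was above. At least 4 summits within 10 kb were found at 3 of the 6 genes, Ebf1, Ebf3 and Zfp516, against 16.8% of all genes.

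**Figure D2:**
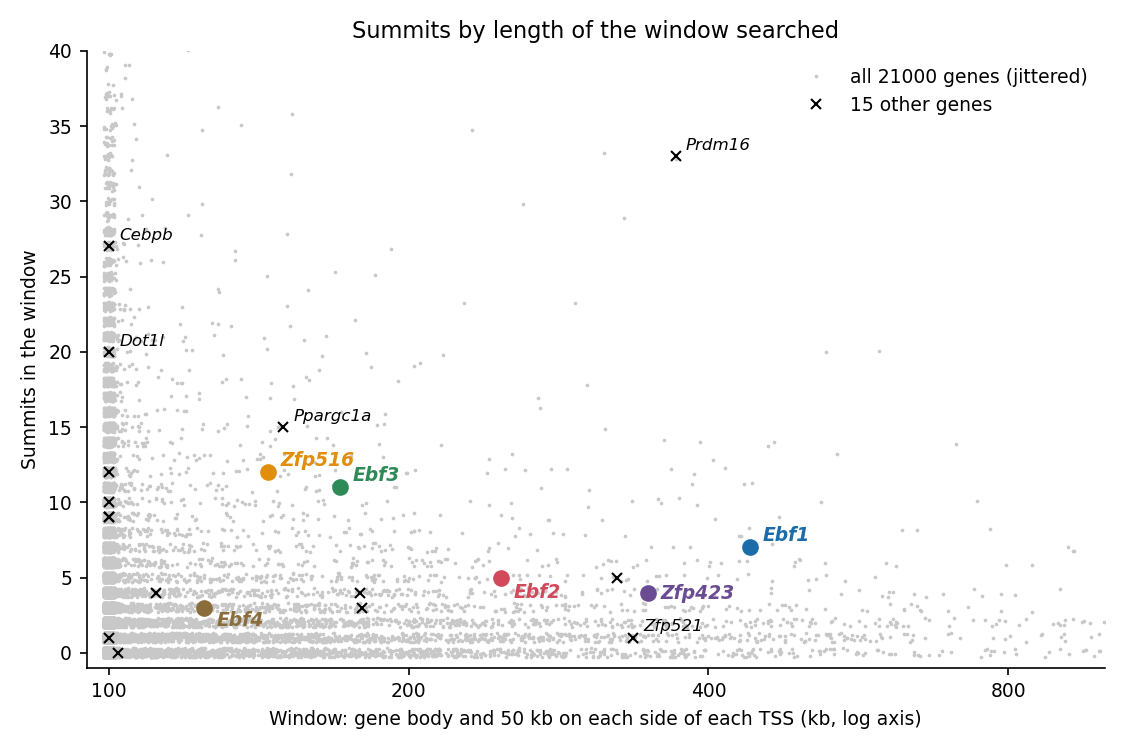
Summits in the window (vertical) against window length in kb (horizontal, log axis) for all 21000 genes as grey points, jittered, for the list of 15 other genes as crosses and for the 6 genes in colour; 100 genes lie outside the axes. Zfp516 with 12 and Ebf3 with 11 summits lie above the upper quartile of genes with windows of like length, and Ebf4 with 3 lies within the quartiles.

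A promoter summit, meaning one within 1 kb of a TSS of the gene, was present at Ebf1, Ebf2, Ebf3 and Zfp516, which is 4 of 6 genes against 45.2% of all genes. Their highest promoter scores were 14.3, 12.5, 9.78 and 7.58. Genes were also divided by whether their first TSS was CpG-rich, taken here as at least 55% GC and an observed over expected CpG ratio of at least 0.6 within 500 bp of a TSS, limits that were chosen after the list had been seen. Of genes with such a first TSS 73.9% had a promoter summit, and of the others 24.4%. Ebf3, Ebf4, Zfp423 and Zfp516 had a CpG-rich first TSS, with 67.1 to 72.6% GC, and 2 of these 4 had a promoter summit. The first TSS of Ebf1, with 49.3% GC, and that of Ebf2, with 51.7%, were not CpG-rich by these limits, but the second TSS of each was, with 56.5% and 56.2%. At Ebf2 the promoter summit was at the second TSS alone. At Ebf1 there was 1 at each, 878 bp from the first and 929 bp from the second, and the one with the higher score was at the first.

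The count at Zfp423 depended on which transcripts were used. When RefSeq model mRNAs, which are predicted, were added to the curated ones, 2 of its summits became promoter summits. The one with a score of 3.75 was 133 bp from a model TSS and the one with a score of 4.61 was 794 bp from another. This made 5 of the 6 genes with a promoter summit, against 46.5% of the same 21000 genes with the same transcripts. Model mRNAs raised the TSSs of the 6 genes from 10 to 44, so that far more sequence was counted as promoter. At Zfp516, model TSSs lay 31 and 128 bp from the summits that scored 3.75 and 4.87.

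Scores at the 6 genes spread much as those of the whole list did. The 42 summits ran from 2.15 to 36.7, with a median of 5.30 (95% order-statistic interval 4.04 to 7.58) and quartiles of 3.75 and 8.65. The median of all 32173 summits was 5.0, with quartiles of 3.05 and 9.39. A score of at least 10 was reached by 8 of the 42 (19%, 95% Wilson interval 9.98 to 33.3) against 23.5% of all summits. Each of the 6 genes had at least 1 of these 8, but that of Ebf4 was 89 bp from the TSS of Nop56. The share of all genes with such a summit is not given here.

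Farther than 1 kb from any TSS, the median score was 4.61 at the 33 summits of the 6 genes and 4.16 over all. Within 1 kb it was 7.58 at 9 summits and 8.65 over all. At Ebf2, Ebf3 and Zfp516 the highest score was not at the promoter, whereas at Ebf1 it was. Zfp423 had no promoter summit, so that its highest score could not be there. How often this holds over all genes is not given here. Scores take a limited set of values, so that ranks are coarse: the 8.65 shared by Ebf1 summits 5 and 6, Zfp423 summit 1 and Zfp516 summit 8 occurred at 717 summits of the list.

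**Figure D3:**
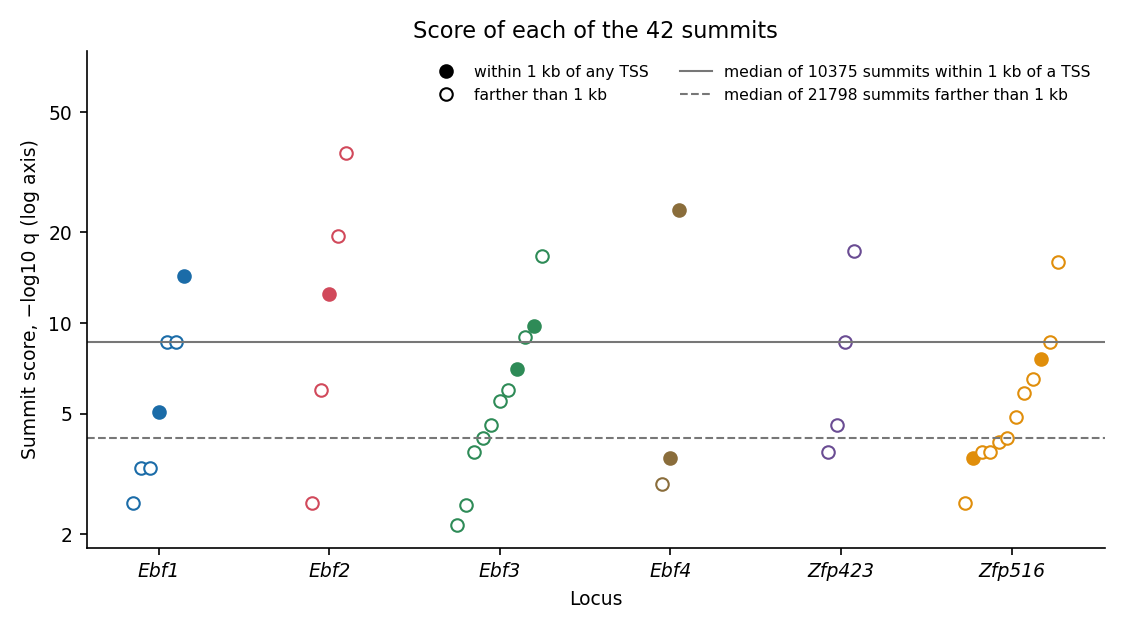
Score (−log10 q, log axis) of each of the 42 summits, in ascending order within each gene; filled circles lie within 1 kb of any TSS and open circles farther away. The solid line is the median of all summits within 1 kb of a TSS, 8.65, and the dashed line that of all others, 4.16: the highest points at Ebf2, Ebf3, Zfp423 and Zfp516 are open circles.

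Summits of the 6 genes were mostly intronic. Introns held 24 of the 42 (57.1%, 95% Wilson interval 42.2 to 70.9) against 40.6% of all summits, exons 4 (9.52%) against 16.6%, and sequence outside all mRNA genes 14 (33.3%, 21 to 48.4) against 42.8%. Noncoding genes were not counted here, and of these 14 Ebf2 summit 1 lay in an exon of Gm30438 and Zfp516 summit 1 in an intron of the noncoding gene Gm30889. The rule takes whole gene bodies of long genes and so favours introns. Only 9 summits (21.4%, 11.7 to 35.9) lay within 1 kb of any TSS, against 32.2% of all summits. GC content within 100 bp had a median of 55.5%, against 56.2% over all summits.

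The sequence that EBF proteins bind was near few of these summits. The EBF pattern was within 100 bp of 2 of the 42 summits (4.76%, 95% Wilson interval 1.32 to 15.8), the one at the Ebf3 promoter and one in Zfp516 intron 2, against 9.93% of all summits. Farther than 1 kb from a TSS it was at 1 of 33 (3.03%, 0.537 to 15.3) against 11.5%. The looser pattern was at 5 of the 42 (11.9%) against 15.7%, and none held the EBF pattern on both strands in the same 10 bases, which 1.33% of all summits did. With 250 bp searched on each side, 8 of the 42 (19%) held the EBF pattern against 17.9% of all. The intervals at the 6 genes are wide, and over all windows within 100 bp that at 42 summits includes the share of the whole list.

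The patterns of other factors were counted in the same windows. AP-1 matches were at 5 of the 42 summits (11.9%, 5.19 to 25) against 6.40% of all, at 3 Ebf1 summits, the highest Ebf2 summit and the Zfp516 summit 239 bp upstream of the first TSS. C/EBP matches were at 6 (14.3%) against 10.9%. They were at the highest-scoring summits of Ebf1, Ebf3 and Zfp423, at the Ebf2 summit in intron 15 and at 2 Zfp516 summits. NFI matches were at 5 (11.9%) against 10.9%, the PPAR/RXR repeat at 1 (2.38%) against 1.86%, and the CRE at none against 1.03%. GC boxes were at 6 (14.3%) against 20.6%, and at 4 of the 9 summits within 1 kb of a TSS against 45.0% there. Of the 42 summits, 22 (52.4%) held at least 1 of the 8 patterns, as did 51.5% of all.

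**Figure D4:**
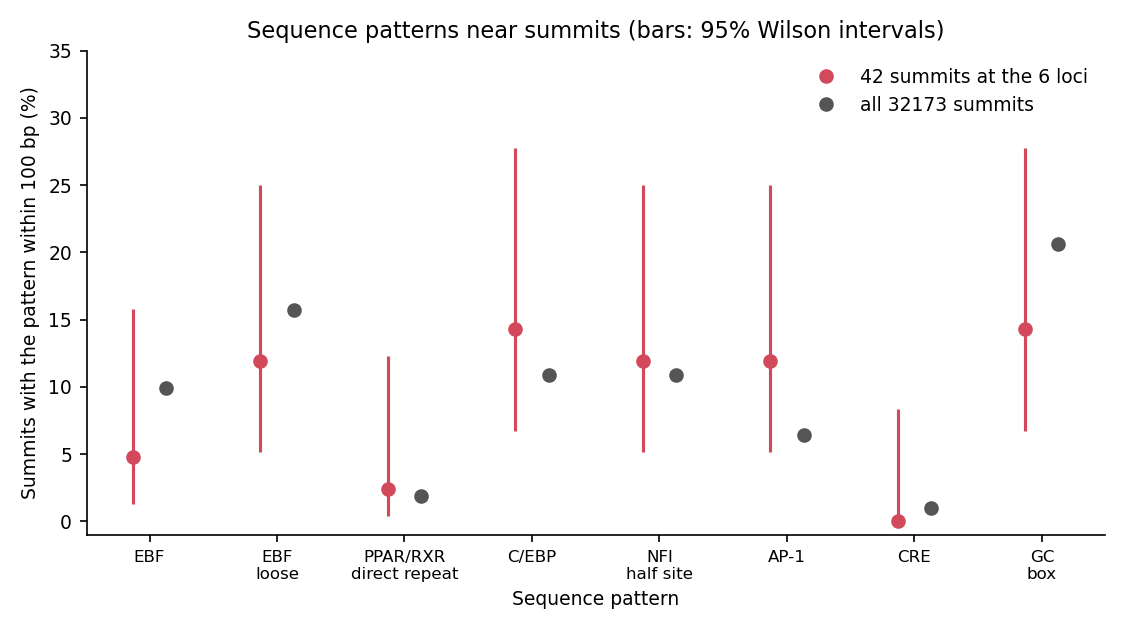
Share of summits (%) with each of the 8 sequence patterns within 100 bp, for the 42 summits at the 6 genes (red, bars are 95% Wilson intervals) and for all 32173 summits (grey). The share of all summits lies within the red bar for every pattern, with the EBF pattern at 4.76% against 9.93% and AP-1 at 11.9% against 6.40%.

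A list of 15 genes was looked at in the same way. It held partners, relatives and targets of these factors and other regulators of fat cells (Prdm16, Ehmt1, Kdm1a, Zfp521, Tle3, Dpf3, Zfp217, Pparg, Cebpa, Cebpb, Irf4, Ppargc1a and Ucp1), and also Dot1l and Zc3h10, the genes the study is about. A promoter summit was present at 13 of the 15, against the 45.2% of all genes given above. Most of the 15 had a CpG-rich first TSS, and of all such genes 73.9% had a promoter summit. A summit by the same rule was present at 14, against 72.5% of all genes. The 2 without a promoter summit were the histone demethylase Kdm1a, which had none by either rule, and the zinc finger gene Zfp217. Over all 15 the median density was 8.90 per 100 kb. Some of these summits were nearer to the TSS of a neighbouring gene, since 22 of 33 at Prdm16, 7 of 20 at Dot1l and 11 of 12 at Ucp1 had the gene's own TSS as the nearest. So did 2 of 10 at Zc3h10, 1 of 4 at Ehmt1, 2 of 5 at Dpf3, 8 of 9 at Cebpa and 23 of 27 at Cebpb. At Zfp521, Tle3, Zfp217, Pparg, Irf4 and Ppargc1a all did. Prdm16, the coregulator that works with EBF2 and ZFP516, had 33 summits (8.90 per 100 kb), more than any of the 6 genes. Zfp521, the close relative of Zfp423, had 1 in its whole window, at its promoter with a score of 2.15. Ucp1, the uncoupling protein bound by ZFP516, had 12 (12.0 per 100 kb) with a highest score of 33.7, below the 36.7 upstream of Ebf2. Dot1l, which is deleted in Ucp1+ cells of 2 of the 4 animals, had 20, with a promoter summit that scored 10.9.

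Marker genes of several cell types were looked at beside the tissue label. Of 8 adipocyte markers, Ucp1, Cidea, Dio2 and Ppargc1a of brown fat and Adipoq, Pparg, Fabp4 and Plin1 of adipocytes in general, all had a promoter summit, with highest scores from 6.02 to 61.5, against the 45.2% of all genes. So did 2 of 4 markers of fat progenitors and mural cells (Pdgfra and Cspg4, scores 2.53 to 4.16) and 1 of 2 endothelial markers (Cdh5, 2.59). None of 3 B cell markers, 3 macrophage markers and 3 markers of tissues other than fat had one. With so few markers and the use of a MACS2 control unknown, this does not show that such cells were absent. The part of non-brown cells in the summits at Ebf1, where B cells also use the gene, and at Zfp423, which precursors use, was not tested.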

How the data were processed

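ATAC-seq libraries of BAT nuclei came from 2 WT and 2 Dot1L-BKO mice, and the RNA-seq libraries, also from both genotypes, were not used here. Per the methods and labels, BWA within Partek Flow placed the reads on mm10, and MACS2 (2.1.1) in its ATAC mode kept peaks with q under 0.05 and at least 2.0 times enrichment. The authors then deposited 1 list of summits with the −log10 q-value of each, called the score. Read shifting for the transposase and the handling of duplicate and mitochondrial reads are not given in the sources used here and could change which sites were called.

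Summits were placed against RefSeq GRCm38.p6, the same build as mm10, using curated mRNAs on chromosomes 1 to 19, X and Y. Patterns were counted on both strands within 100 bp of each summit. Shares have 95% Wilson intervals and numbers per length exact Poisson intervals, and both cover counting error only. No test was made, since the list holds no values per library. The members, gene lists and patterns were chosen with earlier results of these data known. Named summits were the one nearest the TSS and the 3 with the highest scores per gene, and those with the EBF pattern. The remaining summits of the 6 genes were described after their values were seen. Alternatives changed the score minimum, the window, the transcripts, the merging of summits within 500 bp and the pattern. On simulated loci 200 of 200 counts were right, with summits placed and counted by the same windows. In random sequence of A and T alone, 200 of 200 placed patterns were found and 0 were found where none was placed. Since every pattern holds C or G, that 0 was fixed in advance. It says nothing about matches that arise by chance in the genome. Python 3.11.15, numpy 2.4.6, scipy 1.17.1, pysam 0.24.0 and matplotlib 3.10.9 were used.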

Additional observations from a re-analysis of the deposited data

How the results depend on the processing

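Of 61 alternative values of the main results, 47 stayed within 1.5 times the value given or within its interval, and 14 moved. A score minimum of 5 left 22 of the 42 summits, a median density of 1.26 per 100 kb against 2.21 and a median score of 8.65 against 5.30. A minimum of 10 left 8 summits, a median of 1.00 per gene against 6.0, a median density of 0.639, 2 genes with a promoter summit (Ebf1 and Ebf2) against 4, a median score of 17.0 and an EBF share of 0%. These follow from the removal of low scores. Gene bodies alone gave 26 summits, a median of 3.50 per gene and a median density of 1.27. The EBF share was 19% within 250 bp and 0% for the pattern on both strands in the same 10 bases, against 4.76%. Genes with a promoter summit numbered 3 within 500 bp of a TSS, 5 within 5 kb and 5 with model mRNAs. The share of all genes was 45.2% within 1 kb and 46.5% with model mRNAs. It is not given here for 500 bp and 5 kb, so that those counts have no background. Of 102 values for single genes, 30 moved. When only summits nearest to the gene's own TSS were counted, Ebf4 had 0. With a minimum of 5, Zfp516 fell from 12 to 5 summits and Ebf3 from 11 to 6, and with a minimum of 10 each had 1 and Ebf2 had 3.

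No paired analysis was possible because the summits used here carry no values for single libraries, and for the same reason no replicate was left out in turn. Depth is unknown, and the absence of a promoter summit at Ebf4 and Zfp423 says only that none passed the authors' cutoffs.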
